A study of Mus musculus with 68 samples.

Results

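Liver endothelium is described here from 2 RNA-seq libraries of endothelial cells purified from healthy mouse liver, set against 2 libraries each from heart, kidney and lung. These 8 libraries were taken by their labels from the 68 of the series, which profiles purified endothelial cells of several organs in health and of the central nervous system in disease models. The liver, heart, kidney and lung groups are all given as healthy in both the disease and the time labels. Genotype, strain, sex, age and the marker used for sorting are not given in the sources used here, and the labels do not say whether replicates came from separate animals, so each p-value below measures only the spread between libraries, which may be technical. In every group the cells were sorted by fluorescence into Trizol, RNA was isolated with phenol chloroform, and the NuGEN kits Ovation RNA-seq V2 and Ovation Ultralow were used for the libraries. Values are CPM, the reads of a gene scaled to a fixed total of assigned reads per library, which depend on transcript length, so levels are compared between libraries and not between genes.

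Sinusoidal endothelial cells line the capillaries of the liver. They are perforated by open fenestrae without a diaphragm and lie on little organised basement membrane, so that plasma reaches the hepatocytes directly. They are also scavenger cells: receptors for hyaluronan, mannose-ended glycoproteins, modified lipoproteins and immune complexes carry blood-borne waste through clathrin-coated pits to the lysosome. The same cells release Wnt ligands, R-spondin and bone morphogenetic proteins that act on neighbouring hepatocytes. Capillaries of heart and lung are continuous and rich in caveolae, and those of the kidney glomerulus are fenestrated.

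The 8 libraries held between 23199338 and 34241175 assigned reads, with 26415966 and 31870485 in liver. A read was found for 18107 and 19116 genes in liver and for 18910 to 20023 in the other organs, and 3 reads, taken as the floor of detection, corresponded to between 0.088 and 0.129 CPM. Mitochondrial ribosomal RNA took 30.25% and 26.24% of the CPM in liver and 17.34 to 27.34% in the other 6 libraries. The label was checked against 24 endothelial identity genes. None had 0 CPM in either liver library, and 1, Cd34, was lower than in all 3 other organs. Cdh5, vascular endothelial cadherin, stood at 1341 and 1557 CPM in liver, 1560.2 and 1453 in heart, 1442 and 1624 in kidney and 2961 and 2573 in lung. The liver values overlapped those of heart and kidney and lay below lung. Pecam1, the endothelial adhesion molecule CD31, stood at 736 and 736 CPM in liver, 1304 and 1437 in heart, 1384 and 1457 in kidney and 2044 and 1670.3 in lung. Both liver libraries were below the other 6, with a fold of -1.06 ± 0.16 on the log2 scale against their mean.

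The liver libraries differed from each other in transcripts of other liver cells before any organ is compared. Over the 15348 tested genes the median log2 difference, library 1 minus library 2, was -0.02 with an SD of 0.59. For 55 tested macrophage and Kupffer cell markers it was 1.25, with 50 higher in library 1. For 69 tested hepatocyte markers it was -0.75, with 59 higher in library 2. For 18 hepatic stellate cell markers it was -1.45, with 17 higher in library 2. All 22 immediate early genes, which cells switch on within minutes of stimulation and also during tissue dissociation, were higher in library 2, with a median difference of -1.41. For the 18 tested scavenger and lectin receptors the median was 0.04, with 9 higher in each library, and for the 24 identity genes it was 0.02. For several lists and genes, results without 1 of the liver libraries are therefore given as well. For the other genes the values of both liver libraries are printed.

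**Figure D1:**
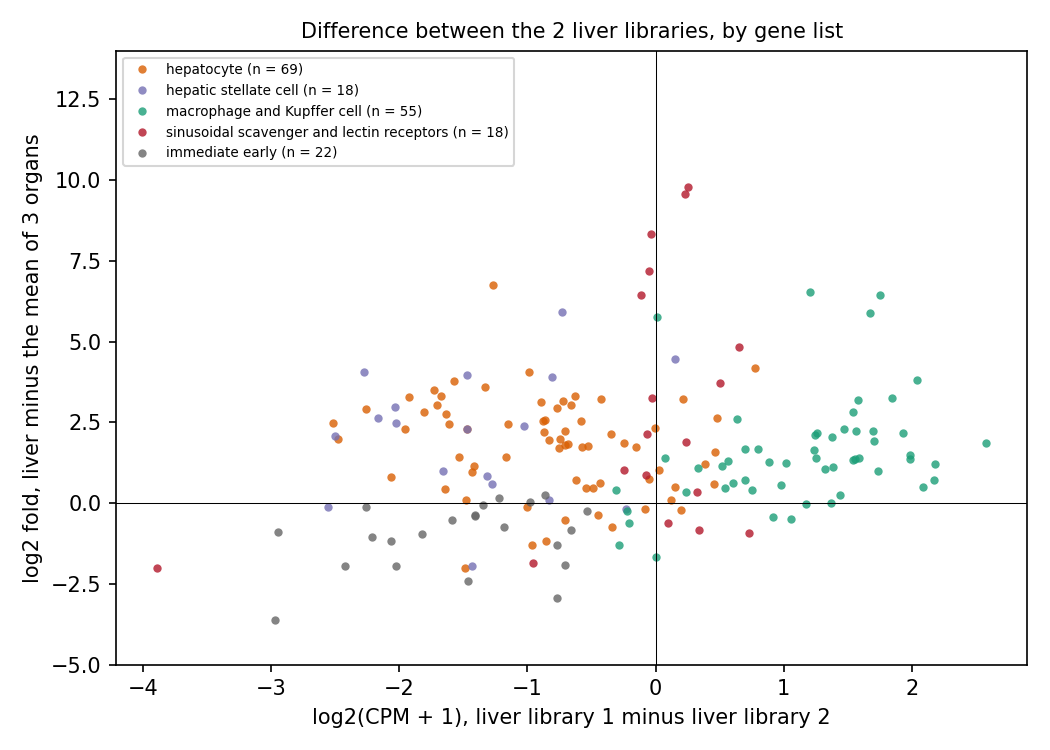
Each point is 1 tested gene of 5 gene lists, with the log2(CPM + 1) difference between liver library 1 and liver library 2 on the x axis and the log2 fold of liver against the mean of heart, kidney and lung on the y axis. Scavenger receptors lie around 0 on the x axis, 50 of 55 macrophage markers lie to the right, and 59 of 69 hepatocyte markers and all 22 immediate early genes lie to the left.

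The comparison across organs asked which transcripts set liver endothelium apart from that of heart, kidney and lung at once. Levels were fitted as log2(CPM + 1) with limma over the 8 libraries, for genes above 1 CPM in at least 2 of them. A gene is called liver-higher or liver-lower when its Benjamini-Hochberg adjusted p is under 0.05 and its log2 fold is beyond 1 in that direction against each of the 3 organs. Of 15348 genes tested, 460 (3%) were liver-higher and 851 (5.54%) were liver-lower. Counts of called members in every list below are to be read beside these shares. In all 460 and all 851 the liver libraries did not overlap the other 6, which the rule itself favours. Of all 15348 tested genes, 1745 had both liver libraries above the other 6 and 3162 had both below. Against single organs, with adjusted p under 0.05 and no fold limit, 16.4% of genes were higher and 17.8% lower than in heart, 8.19% higher and 20.4% lower than in kidney, and 6.63% higher and 16.6% lower than in lung. The median log2 fold over all tested genes was 0.02 against heart, -0.24 against kidney, -0.17 against lung and -0.16 against the mean of the 3 organs. That last median moved to 0.05 after quantile normalization, to 0.02 with edgeR and to -0.02 with DESeq2 on the recovered reads. The share of called genes that were higher in liver moved with it, from 28.7% to 48.0% against kidney and from 28.6% to 46.6% against lung after quantile normalization.

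The smallest of a gene's 3 folds, called its weakest fold below, exceeded 2 log2 units in 203 liver-higher and 330 liver-lower genes, and exceeded 5 in 21 and 11. Together the 460 liver-higher genes took 10.01% and 9.93% of all CPM in the liver libraries against 1.28 to 1.69% in the other 6. The 851 liver-lower genes took 1.92% and 2.46% in liver against 10.1 to 13.3% elsewhere. Of the liver-higher genes 37 are on a hepatocyte marker list and 11 on a macrophage list, and no liver-lower gene is on either. In these bulk libraries, fewer cells of a type and less RNA per cell cannot be told apart. In 408 of the 460 the liver libraries lay within 1 log2 unit of each other. Without liver library 1, 236 of the 460 were still called, 127 were tested and not called, and 97 could not be tested, because a gene present in 1 remaining liver library does not reach 2 libraries above 1 CPM. Without liver library 2 the numbers were 258, 105 and 97. Of the 851 liver-lower genes, 541 were still called without liver library 1 and 695 without liver library 2. At the edge of the rule stood Nr2f2, with a weakest fold of 1.07 and called, and Apoe, with 0.97 and not called.

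**Figure D2:**
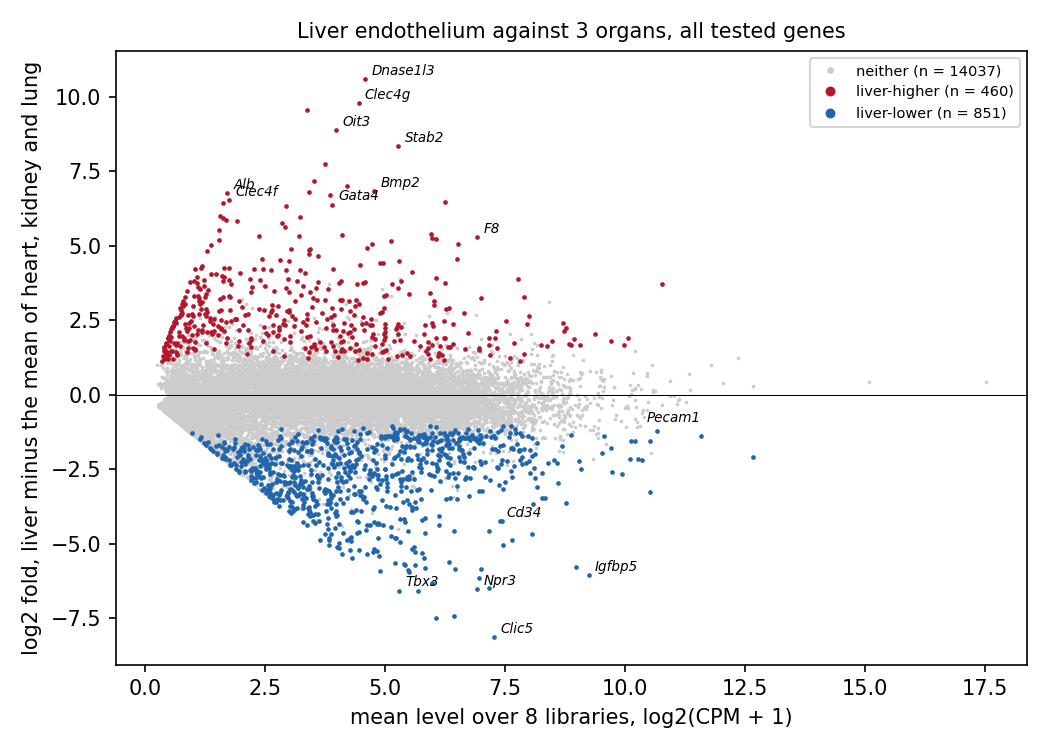
Each point is 1 of 15348 tested genes, with its mean level over 8 libraries in log2(CPM + 1) on the x axis and its log2 fold of liver against the mean of heart, kidney and lung on the y axis. The 460 liver-higher genes reach beyond 10 log2 units (Dnase1l3) and the 851 liver-lower genes beyond -8 (Clic5).

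Receptors that take up waste from the blood had the highest share of liver-higher members among the 27 biology lists. The lists and their members were chosen with earlier results of these data known. Ranks among lists, here and below, therefore describe these data and test nothing. Of 18 tested scavenger and lectin receptors, 9 were liver-higher and none was liver-lower, and the median fold over the 3-organ mean was 2.01 log2 units, beside -0.16 over all tested genes. Stab2, the stabilin receptor that clears hyaluronan, stood at 2929 and 3001 CPM in liver, 5.34 and 2.66 in heart, 6.42 and 5.86 in kidney and 15.04 and 29.8 in lung. Every liver library was far above every other, and lung was the nearest organ. The log2 fold was 8.34 ± 0.28 against the 3-organ mean and 7.06 ± 0.34 against lung (limma adjusted p 1.06e-06). Its paralogue Stab1 stood at 1260.3 and 1319 CPM in liver, 299 and 381 in heart, 214 and 226 in kidney and 353 and 325 in lung. The groups again did not overlap, but the other organs kept 214 to 381 CPM, and the fold against the mean was 2.13 ± 0.15.

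The C-type lectins differed in how low they were outside liver. Clec4g, the lectin LSECtin, stood at 3854 and 3237 CPM in liver, 4.402 and 4.38 in heart, 1.81 and 0.933 in kidney and 6.12 and 2.73 in lung. Its fold was 9.78 ± 0.28 with a limma adjusted p of 5.36e-08. Mrc1, the mannose receptor, stood at 2107 and 2275 CPM in liver, 11.3 and 25.4 in heart, 4.93 and 7.17 in kidney and 81.8 and 182 in lung. Lung held the highest values outside liver and the weakest fold was 4.15. Clec1b, the podoplanin receptor that platelets also carry, stood at 175 and 123 CPM in liver, 6.81 and 4.47 in heart, 7.65 and 12.4 in kidney and 22.9 and 15.2 in lung. The liver libraries were the highest and the weakest fold was 2.91. Cd209b, a relative of DC-SIGN, was at 0 in all heart and kidney libraries, at 0.388 and 0.04198 CPM in lung and at 36.95 and 23.1 CPM in liver. Cd209b passed the filter on low values through the liver libraries alone, and it was not tested with either of them left out.

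Receptors for immune complexes, modified lipoproteins and serum proteins moved the same way. Fcgr2b, the inhibitory Fc receptor that removes small immune complexes, stood at 1617 and 1382 CPM in liver, 0.0753 and 1.14 in heart, 0.828 and 0.635 in kidney and 0.862 and 3.65 in lung. All 6 libraries outside liver were at 0.0753 to 3.65 CPM, and the fold against the mean was 9.57 ± 0.40 (limma adjusted p 2.82e-07). Msr1, scavenger receptor A, stood at 469 and 487 CPM in liver, 1.77 and 3.24 in heart, 2.01 and 3.32 in kidney and 0.647 and 4.198 in lung. The liver libraries were close to each other and far above the rest, and the weakest fold was 7.05. Fcgrt, the neonatal Fc receptor that recycles IgG and albumin, stood at 692 and 705 CPM in liver, 58.7 and 59.5 in heart, 66.9 and 81.5 in kidney and 97.3 and 77.96 in lung. Its liver values were again the highest, with a weakest fold of 2.99 and a largest adjusted p of 5.27e-06.

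The other 9 tested receptors were called in neither direction. Lyve1, a hyaluronan receptor used as a marker of both lymphatic and sinusoidal endothelium, stood at 367 and 311 CPM in liver, 180.4 and 263 in heart, 1.695 and 2.43 in kidney and 1115 and 1254 in lung. Lung was the highest and kidney nearly empty, so that the liver was not set apart, with folds of 6.80 ± 0.23 against kidney and -1.80 ± 0.23 against lung. Cd36, the fatty acid and thrombospondin receptor, stood at 649 and 514 CPM in liver, 1966 and 1857 in heart, 329.6 and 267 in kidney and 2248 and 1652 in lung. Its liver values were between those of kidney and those of heart and lung. Scarb1, the receptor for high-density lipoprotein, stood at 159 and 127 CPM in liver, 102 and 86.9 in heart, 163 and 128 in kidney and 130.4 and 79.3 in lung, with overlapping groups. The count of liver-higher receptors was 8 without liver library 1 and 8 without liver library 2. The summed CPM of the 20 listed receptors was 14450 and 13670 in liver against 889 to 4238 in the other 6 libraries. Macrophages also use Mrc1, Msr1, Fcgr2b and Stab1. The macrophage markers summed to 2550 CPM in liver library 1 and 1159 CPM in library 2, and these 4 receptors stood at 2107 and 2275, 469 and 487, 1617 and 1382 and 1260.3 and 1319 CPM. The part of macrophage RNA in the receptor levels was not tested.

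Genes of the endocytic and lysosomal route were higher in liver for a subset of members. Of 33 tested, 9 were liver-higher, 1 was liver-lower and 23 neither, with a median log2 fold of 0.68 beside -0.16 over all genes. Against single organs, 20 of 33 were higher than heart, 18 higher than kidney and 13 higher than lung. Dnase1l3, a secreted nuclease that digests DNA in the circulation and in microparticles, stood at 6013 and 5913 CPM in liver, 2.56 and 1.17 in heart, 2.09 and 3.32 in kidney and 3.15 and 6.47 in lung. It had the largest fold of the 15348 genes, 10.60 ± 0.29 (limma adjusted p 5.09e-08). Lysosomal enzymes followed with smaller folds. Lgmn, the asparaginyl protease legumain, stood at 549.9 and 507 CPM in liver, 50.2 and 56.4 in heart, 15.2 and 11.3 in kidney and 77.5 and 85.6 in lung. Man2b1, which trims mannose from glycoproteins, stood at 297 and 296 CPM in liver, 35.8 and 37.2 in heart, 77.4 and 61.7 in kidney and 69.5 and 69.3 in lung. Their weakest folds were 2.68 and 2.08, and liver did not overlap the other organs in either.

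The cathepsins of the lysosome divided. Ctsl stood at 1477 and 1322 CPM in liver, 355 and 385 in heart, 215 and 267 in kidney and 274 and 328 in lung. Ctsb stood at 1292 and 1269.7 CPM in liver, 489 and 474 in heart, 287 and 340.4 in kidney and 409 and 470.2 in lung. Both were liver-higher in non-overlapping groups, with weakest folds of 1.92 and 1.41. Ctsd, at 1124 and 959 CPM in liver, 293 and 395 in heart, 324 and 419 in kidney and 858 and 697 in lung, was called in neither direction, with lung close to liver. Ctsh was at 40.1 and 19.9 CPM in liver and 215 and 233 CPM in lung. Among parts of the coat and its adaptors, the light chain Clta stood at 343 and 339 CPM in liver, 80.3 and 93.8 in heart, 104 and 122 in kidney and 120.2 and 127 in lung and was liver-higher. The other light chain, Cltb, stood at 28.9 and 31.7 CPM in liver, 105 and 110 in heart, 78.9 and 79.8 in kidney and 88.5 and 89.5 in lung and was liver-lower, with a weakest fold of -1.36. The heavy chain Cltc was 0.70 ± 0.14 log2 units above the 3-organ mean and the cargo adaptor Dab2 1.66 ± 0.19. Lamp2, a main protein of the lysosomal membrane, stood at 1973 and 1825 CPM in liver, 479.7 and 427 in heart, 429 and 447 in kidney and 512 and 499.7 in lung. The fold of Lamp2 was 2.03 ± 0.14, and its relative Lamp1 was called in neither direction because of lung, where it stood at 880.2 and 669 CPM beside 804 and 738 CPM in liver. The count of liver-higher genes was 9 without liver library 1 and 9 without liver library 2.

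**Figure D3:**
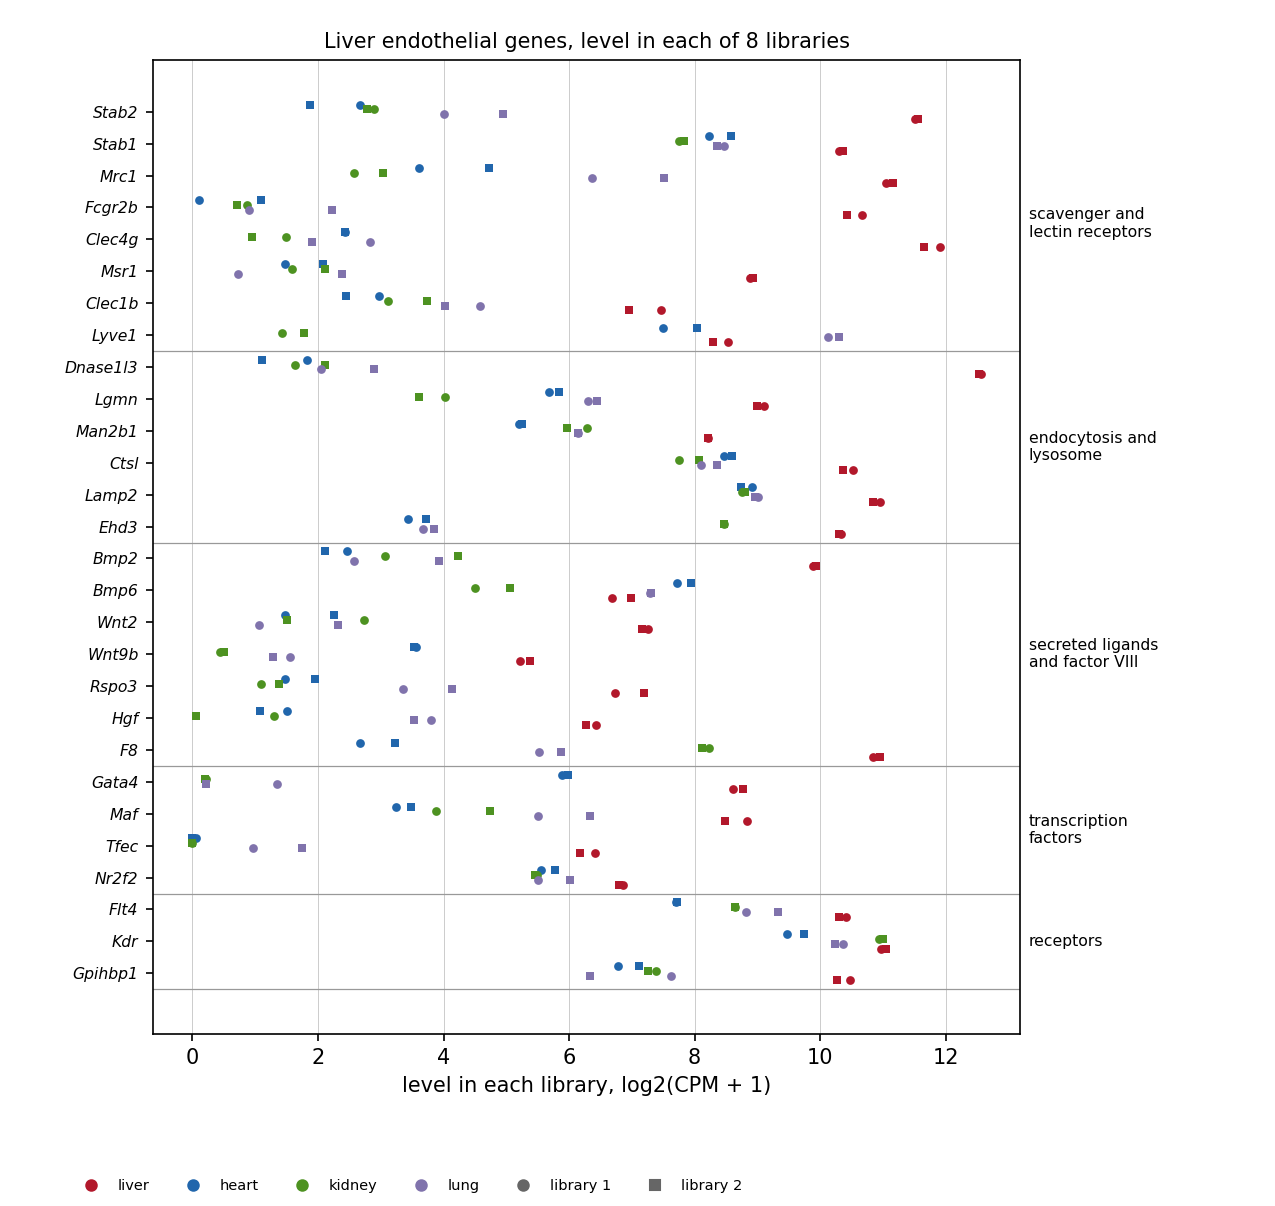
Levels in log2(CPM + 1) on the x axis for 28 genes on the y axis, with 1 point for each of the 8 libraries, coloured by organ and shaped by library. Liver points stand to the right of all others for the called genes such as Stab2 and Dnase1l3, and are mixed with them for Lyve1, Bmp6 and Kdr.

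Secreted signals split in both directions. Of 33 tested angiocrine ligands, 10 were liver-higher and 7 liver-lower, with a median log2 fold of -0.15, close to that of all genes, and a mean of 0.41. The median was 0.06 after quantile normalization and -0.53 without liver library 1. Bmp2, which with Bmp6 drives hepcidin production by hepatocytes, stood at 940.2 and 972 CPM in liver, 4.52 and 3.33 in heart, 7.41 and 17.8 in kidney and 4.96 and 14.3 in lung. The fold was 6.84 ± 0.38 (limma adjusted p 1.62e-06) and the libraries outside liver were at 3.33 to 17.8 CPM. Bmp6 stood at 101 and 126 CPM in liver, 211 and 244 in heart, 21.6 and 32.4 in kidney and 156 and 158 in lung. Heart and lung were above liver and kidney below it, so Bmp6 was called in neither direction. Il1a, the interleukin 1 alpha cytokine, stood at 375 and 583 CPM in liver, 0.602 and 2.02 in heart, 0.197 and 0.261 in kidney and 34.9 and 32.5 in lung. Its weakest fold, against lung, was 3.75. Igfbp7, an insulin-like growth factor binding protein of the vessel wall, stood at 1595 and 1334 CPM in liver, 226 and 260.4 in heart, 181 and 145 in kidney and 603 and 479.9 in lung, with a weakest fold of 1.44.

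Some ligands called liver-higher are also made by other liver cells. Hgf, hepatocyte growth factor, is on the stellate cell list as well, and stood at 85.1 and 76.4 CPM in liver, 1.84 and 1.11 in heart, 1.46 and 0.0373 in kidney and 12.9 and 10.5 in lung. The liver libraries differed little, while the summed stellate markers were 547 CPM in library 1 and 1536 CPM in library 2. Hgf was not called with a pseudocount of 0.1 (largest limma adjusted p 0.0631) or with DESeq2 on the recovered reads (0.0751). Gdf2, bone morphogenetic protein 9, is on the same list and stood at 9.01 and 26.7 CPM in liver, 0.188 and 0.204 CPM in heart, 0 and 0.0373 CPM in kidney and 0 in both lung libraries. With either liver library left out, Gdf2 did not pass the filter and was not tested. Cxcl9, a chemokine induced by interferon gamma, stood at 251 and 1042 CPM in liver, 73.8 and 83.5 in heart, 5.91 and 8.73 in kidney and 4.01 and 2.98 in lung. The liver libraries were apart by over 2 log2 units, and library 2 was the higher. The part of stellate cells and of dissociation in these values was not tested.

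The 7 liver-lower ligands included growth factor, peptide and cytokine signals. Igfbp5, a binding protein of insulin-like growth factors, stood at 22.1 and 28.5 CPM in liver, 1607 and 2174 in heart, 6805 and 7046 in kidney and 284 and 582 in lung. Kidney was highest and the weakest fold, against lung, was -3.97. Apln, the apelin peptide, stood at 0.984 and 1.88 CPM in liver, 9.93 and 16.3 in heart, 30.8 and 44.8 in kidney and 207 and 140.4 in lung. Its receptor Aplnr stood at 0.757 and 2.64 CPM in liver, 78.4 and 109 in heart, 251 and 227 in kidney and 142 and 79.5 in lung. Ligand and receptor were thus both liver-lower, with weakest folds of -2.52 and -5.21. Pdgfb, which recruits pericytes, stood at 5.41 and 5.43 CPM in liver, 20.4 and 26.9 in heart, 155 and 178 in kidney and 83.8 and 62.8 in lung. Kitl, stem cell factor, stood at 44.2 and 48.98 CPM in liver, 321 and 271 in heart, 210.2 and 236 in kidney and 629.8 and 421 in lung, while its receptor Kit was liver-higher at 383 and 308 CPM in liver, 37.4 and 38.4 in heart, 17.3 and 18.9 in kidney and 156 and 118 in lung. Jag1 is described with the Notch pathway. The cytokine Il6 and the growth factor Pdgfa were also called liver-lower in the comparison of all 8 libraries. Il6 was not called without kidney library 1 (weakest fold -2.07, largest limma adjusted p 0.051). Pdgfa was not called without heart library 1 (-0.79, 0.19), liver library 1 (-1.05, 0.11) or liver library 2 (-1.24, 0.054).

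Wnt ligands and an R-spondin, signals that pattern the lobule, were among the liver-higher genes. In the liver, endothelial cells of the central vein and its surroundings make Wnt2, Wnt9b and Rspo3, which keep the nearby hepatocytes in their pericentral state. Wnt2 stood at 153 and 142 CPM in liver, 1.77 and 3.77 in heart, 5.68 and 1.83 in kidney and 1.08 and 3.99 in lung. Rspo3, an R-spondin that amplifies Wnt signalling, stood at 105 and 145 CPM in liver, 1.77 and 2.89 in heart, 1.14 and 1.61 in kidney and 9.27 and 16.5 in lung. Wnt9b stood at 36.04 and 40.5 CPM in liver, 10.8 and 10.5 in heart, 0.355 and 0.411 in kidney and 1.94 and 1.43 in lung. In all 3 the liver libraries were the highest. The weakest fold was that against lung for Rspo3 and against heart for Wnt9b, and for Wnt2 the folds against heart, kidney and lung lay close together, at 5.35 ± 0.54, 5.09 ± 0.54 and 5.52 ± 0.54. For Wnt2, Rspo3 and Wnt9b in turn the folds against the 3-organ mean were 5.32 ± 0.44, 4.73 ± 0.31 and 3.48 ± 0.28 log2 units, and the largest limma adjusted p was 0.00395.

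Of 27 tested Wnt pathway genes, 4 were liver-higher and 7 liver-lower, with a median of -1.20, or -1.14 with groups at 0 set to the floor. The fourth liver-higher gene, the Dickkopf relative Dkk3, stood at 71.1 and 58.1 CPM in liver, 6.55 and 7.39 in heart, 1.38 and 0.0373 in kidney and 14.5 and 18.01 in lung. Without liver library 1 it was not called (weakest fold 1.78, largest limma adjusted p 0.064), nor with a pseudocount of 0.1 (1.99, 0.15), nor on the recovered reads with edgeR (2.22, 0.063) or DESeq2 (2.17, 0.21). Among the liver-lower genes, Znrf3, a ligase that removes Wnt receptors from the surface, stood at 0.227 and 0.126 CPM in liver, 6.85 and 8.21 in heart, 8.51 and 7.501 in kidney and 10.95 and 17.1 in lung. It was low in both liver libraries and its weakest fold was -2.86. The other 6 were the receptors and co-receptors Fzd1, Fzd6 and Lgr4, the secreted inhibitors Sfrp1 and Dkk2 and the nuclear factor Tcf7. Without liver library 1 the count of liver-lower Wnt genes fell from 7 to 1, and it was 4 without heart library 1, kidney library 1 or liver library 2.

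Zone markers of the sinusoid were called on both its central and its portal side. Of 12 central markers, 5 were liver-higher and 1 liver-lower, with a median of 1.08. These include the 3 signals above and the receptor Kit. The fifth, Gja4, connexin 37, stood at 486 and 524 CPM in liver, 93.6 and 106 in heart, 175 and 216 in kidney and 197 and 162 in lung. The groups did not overlap and the weakest fold was 1.37. Of 12 genes on the portal list, 2 were liver-higher and 1 liver-lower, with a median of -0.62 and a mean of 0.71. The list as drawn up holds Glul, which hepatocytes near the central vein make and which is not a marker of the portal side. Glul counts in this median and mean and was called in neither direction. The liver-higher members of the portal list were Msr1 and Adam23, a surface protein that binds integrins. Adam23 stood at 751 and 745 CPM in liver, 6.096 and 6.104 in heart, 0.315 and 0.635 in kidney and 2.29 and 4.16 in lung. Efnb2, an arterial ephrin, was liver-lower at 102 and 135 CPM in liver, 328 and 349 in heart, 741 and 771 in kidney and 585 and 622 in lung. The difference between the 2 sides was not tested.

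Among transcription factors known from liver endothelium, 4 of 23 tested were liver-higher and 4 liver-lower, with a median log2 fold of 0.08, which ranged from -0.15 to 0.26 over the settings tried. Gata4, the zinc finger factor needed for sinusoidal differentiation in the mouse, stood at 391 and 435 CPM in liver, 58.5 and 61.97 in heart, 0.158 and 0.149 in kidney and 1.55 and 0.168 in lung. It was low in kidney and lung, at no more than 1.55 CPM, while heart kept 58.5 and 61.97 CPM and gave the weakest fold, 2.76 ± 0.37 (limma adjusted p 0.000489). Heart muscle cell markers summed to 166 and 181 CPM in heart and 2.17 to 23.1 CPM in liver, kidney and lung. Fibroblast markers summed to 1160 and 1317 CPM in heart and 163 to 591 CPM in those organs. The part of these cells in the heart level of Gata4 was not tested. Maf, a leucine zipper factor of sinusoidal endothelium, stood at 454 and 356 CPM in liver, 8.43 and 10.2 in heart, 13.8 and 25.8 in kidney and 44.6 and 79.7 in lung. Its weakest fold was 2.73, against lung. Tfec, a factor of the MITF family, stood at 83.96 and 70.97 CPM in liver, 0.0376 and 0 CPM in heart, 0 in both kidney libraries and 0.948 and 2.35 CPM in lung.

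The fourth, Nr2f2, the venous factor COUP-TFII, stood at 116 and 110.2 CPM in liver, 45.98 and 53.9 in heart, 43.9 and 42.7 in kidney and 44.4 and 63.8 in lung. Its fold was the smallest of the 4 at 1.20 ± 0.18, and without lung library 1 its weakest fold was 0.81, short of the limit of 1. Gata2 went the other way, at 37.7 and 39.2 CPM in liver, 121 and 146 in heart, 155 and 229.7 in kidney and 276 and 224 in lung. Gata6, a relative of Gata4, stood at 4.51 and 5.05 CPM in liver, 119.9 and 96.96 in heart, 13.1 and 10.2 in kidney and 40.04 and 64.8 in lung. Gata6 was liver-lower with a weakest fold of -1.12, but not after quantile normalization (-0.79), with mitochondrial ribosomal RNA left out (-0.98), with edgeR on the recovered reads (-0.99), or without kidney library 1 (-0.95) or liver library 1 (largest adjusted p 0.081). The remaining liver-lower factors were Prox1, the lymphatic factor, and Klf4, induced by flow. The count of liver-lower factors in this list was 1 without liver library 1, 1 without kidney library 1 and 1 with edgeR.

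Promoters of 6 of the liver-higher genes described above, picked after their values were seen, are shown so that binding words of these factors can be read in place. The windows run from 250 bases before to 50 bases after the RefSeq start (build GRCm38.p6), 5′ to 3′ on the strand of the gene. Capitals mark AGATAA or TGATAA, words bound by GATA factors, TGCTGAC, a half-site of MAF factors, or CACGTG, the E-box of MITF family factors. Both strands were read, CACGTG is the same on both, and in the windows shown no match overlaps another. Stab2 (chr10:87007893-87008192, minus strand) and Clec4g (chr8:3720602-3720901, minus strand) are scavenger receptors and hold none of these words. Clec1b (chr6:129397047-129397346, plus strand) holds a GATA word 189 bases before the start and another 38 bases after it. Wnt2 (chr6:18030396-18030695, minus strand) holds one 9 bases before the start, and Tfec (chr6:16898392-16898691, minus strand) holds one 81 bases before it. Wnt9b (chr11:103749772-103750071, minus strand) holds a MAF half-site 144 bases before its start.
Stab2: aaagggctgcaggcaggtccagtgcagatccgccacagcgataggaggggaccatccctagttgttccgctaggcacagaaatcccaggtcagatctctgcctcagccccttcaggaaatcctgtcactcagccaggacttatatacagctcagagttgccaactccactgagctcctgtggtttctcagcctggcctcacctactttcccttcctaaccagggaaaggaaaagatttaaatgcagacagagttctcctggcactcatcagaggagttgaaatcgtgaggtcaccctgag
Clec4g: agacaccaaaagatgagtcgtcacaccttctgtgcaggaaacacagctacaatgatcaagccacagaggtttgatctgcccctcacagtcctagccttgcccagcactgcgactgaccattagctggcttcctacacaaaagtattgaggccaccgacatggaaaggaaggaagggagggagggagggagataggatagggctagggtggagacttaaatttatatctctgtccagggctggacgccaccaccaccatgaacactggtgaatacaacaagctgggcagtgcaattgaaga
Clec1b: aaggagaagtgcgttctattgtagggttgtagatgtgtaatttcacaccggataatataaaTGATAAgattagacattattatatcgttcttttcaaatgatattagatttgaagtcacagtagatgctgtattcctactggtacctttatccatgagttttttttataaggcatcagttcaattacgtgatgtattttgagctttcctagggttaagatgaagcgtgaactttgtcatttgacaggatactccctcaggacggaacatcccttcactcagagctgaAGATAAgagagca
Wnt2: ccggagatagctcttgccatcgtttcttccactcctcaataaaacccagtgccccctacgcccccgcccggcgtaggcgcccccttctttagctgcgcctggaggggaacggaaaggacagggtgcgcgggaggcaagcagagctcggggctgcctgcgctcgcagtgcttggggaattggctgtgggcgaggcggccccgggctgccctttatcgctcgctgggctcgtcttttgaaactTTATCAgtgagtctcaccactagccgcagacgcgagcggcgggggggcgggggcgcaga
Tfec: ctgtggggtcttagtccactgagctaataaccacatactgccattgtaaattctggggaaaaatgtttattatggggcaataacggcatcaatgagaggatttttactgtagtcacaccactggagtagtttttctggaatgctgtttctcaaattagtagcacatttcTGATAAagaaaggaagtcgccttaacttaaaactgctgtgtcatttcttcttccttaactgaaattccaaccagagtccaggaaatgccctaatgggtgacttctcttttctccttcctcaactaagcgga
Wnt9b: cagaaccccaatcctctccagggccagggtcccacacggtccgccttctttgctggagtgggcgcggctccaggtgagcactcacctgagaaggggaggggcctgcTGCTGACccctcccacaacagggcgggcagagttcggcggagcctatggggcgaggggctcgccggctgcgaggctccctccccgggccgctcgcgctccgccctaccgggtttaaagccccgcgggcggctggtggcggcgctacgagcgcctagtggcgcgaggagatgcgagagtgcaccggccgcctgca

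Windows were found for 257 of 401 liver-higher and 577 of 842 liver-lower genes that are on no marker list, giving 343 and 796 windows. A GATA word was present in 15.2% of the liver-higher windows and 9.2% of the liver-lower ones, beside 10.8% over the windows of all tested genes and 18.6% over all 32851 windows of the table. A MAF half-site was present in 5.8% and 4.3%, beside 3.7% of tested genes and 4.7% of all windows. The E-box was present in 10.2% and 8.3%, beside 9.5% and 7.2%. These shares describe letters in the windows and were not tested, and the share over tested genes against that over all windows shows how far the choice of background alone moves them.

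Blood clotting genes were called in both directions. F8, the antihaemophilic factor, stood at 1824 and 1977 CPM in liver, 5.34 and 8.41 in heart, 299 and 276 in kidney and 44.7 and 57.8 in lung. Liver was the highest, kidney next, and the fold was 5.29 ± 0.19 against the mean and 2.72 ± 0.23 against kidney (limma adjusted p 2.49e-05). Its carrier Vwf, von Willebrand factor, stood at 155 and 137 CPM in liver, 1132 and 1735 in heart, 40.7 and 32.8 in kidney and 3034 and 3152 in lung. Liver lay above kidney and below heart and lung, with folds of 1.97 ± 0.23 against kidney and -4.40 ± 0.23 against lung, so Vwf was called in neither direction. Tfpi, the inhibitor of the tissue factor pathway, was liver-higher at 678 and 649 CPM in liver, 196 and 228 in heart, 66.2 and 72.3 in kidney and 109.9 and 114 in lung.

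Of 23 tested genes of coagulation and fibrinolysis, 2 were liver-higher and 6 liver-lower, with a median of -0.70. Plat, tissue plasminogen activator, stood at 3.596 and 2.82 CPM in liver, 182 and 166 in heart, 371 and 433 in kidney and 172 and 241 in lung. Serpine2, an inhibitor of thrombin and of plasminogen activators, stood at 1.59 and 0.188 CPM in liver, 48.7 and 52.8 in heart, 119 and 119.7 in kidney and 68.1 and 64.7 in lung. Entpd1, the surface enzyme CD39 that breaks down the platelet activator ADP, stood at 54.2 and 54.9 CPM in liver, 299.9 and 369 in heart, 255 and 327 in kidney and 164 and 168 in lung. All 3 were low in both liver libraries, with weakest folds of -5.38, -4.88 and -1.59. Thbd, thrombomodulin, stood at 305 and 568 CPM in liver, 1099.5 and 1052 in heart, 2124 and 2196 in kidney and 3062 and 3030.3 in lung. It was called with a weakest fold of -1.37, and without liver library 1 that fold was -0.92. Plaur, the receptor of urokinase, was also liver-lower, but it lost its call in 9 of the other settings, among them edgeR, DESeq2, quantile normalization and leaving out liver library 1 (largest limma adjusted p 0.18) or either kidney library. The list held 3 liver-lower genes without liver library 1, with a median of -0.46.

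Among vascular growth factors and their receptors, 1 of 17 tested genes was liver-higher and 3 were liver-lower (1 without a filter on low values). Flt4, VEGF receptor 3, best known from lymphatic vessels, stood at 1366 and 1257 CPM in liver, 208 and 209 in heart, 398 and 399 in kidney and 451 and 645 in lung. The groups did not overlap, with a weakest fold of 1.28. Kdr, VEGF receptor 2, stood at 1995 and 2113 CPM in liver, 712 and 857 in heart, 1950.4 and 2037 in kidney and 1316 and 1201 in lung. Liver overlapped with kidney and was above heart and lung. Flt1, VEGF receptor 1, stood at 545 and 638 CPM in liver, 1103 and 1062 in heart, 2682 and 2632 in kidney and 609.6 and 799.6 in lung, with kidney highest and liver overlapping lung (limma adjusted p 0.451 for that contrast). Of the 3, the ligand Vegfc stood at 8.37 and 6.997 CPM in liver, 29.7 and 37.3 in heart, 61.1 and 70.3 in kidney and 72.9 and 90.9 in lung, and the median over the list was -0.44.

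Surface proteins of lipid uptake and leukocyte traffic included 2 more genes of large fold. Gpihbp1, which holds lipoprotein lipase on the capillary wall, stood at 1427 and 1236 CPM in liver, 109 and 138 in heart, 167 and 152 in kidney and 196 and 79.5 in lung. Both liver libraries were far above the rest, with a fold of 3.29 ± 0.28. It was the only liver-higher gene among 22 tested genes of lipid uptake in continuous capillaries, whose median was -1.28. Of these 4 were liver-lower, among them Pparg, the fatty acid responsive nuclear receptor, at 4.77 and 2.67 CPM in liver, 33.04 and 40.1 in heart, 41.2 and 30.6 in kidney and 15.4 and 15.1 in lung, and Lipe, hormone-sensitive lipase, at 15.7 and 16.03 CPM in liver, 105 and 72.1 in heart, 39.1 and 44.4 in kidney and 50.9 and 38.2 in lung. Darc, the atypical chemokine receptor Ackr1 of venules, stood at 121 and 143 CPM in liver, 2.26 and 5.23 in heart, 0.0788 and 0.0746 in kidney and 11.7 and 31.2 in lung. Its weakest fold, against lung, was 2.71. Of 18 tested genes of leukocyte adhesion it was 1 of 2 that were liver-higher, the other being Stab1, and the median was -1.20, or -0.50 without liver library 1. Cd34 was liver-lower at 23.3 and 13.1 CPM in liver, 250 and 316 in heart, 429.9 and 486 in kidney and 411 and 271 in lung.

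The genes furthest below the other organs, among those with a mean level above the median of tested genes, were shared by heart, kidney and lung. Clic5, of the chloride intracellular channel family, stood at 1.25 and 1.29 CPM in liver, 380.3 and 423 in heart, 657 and 862 in kidney and 862 and 818 in lung. The groups were far apart, and the fold was -8.13 ± 0.15 (limma adjusted p 5.4e-09), the most negative of all genes. Sema7a, a membrane-anchored semaphorin, stood at 0.265 and 1.22 CPM in liver, 199 and 127 in heart, 166 and 137 in kidney and 204 and 145 in lung. Tmtc1, which adds mannose to cadherins, stood at 4.92 and 3.33 CPM in liver, 419 and 402 in heart, 333 and 317 in kidney and 325 and 393 in lung. In both, the 6 other libraries lay close together and the liver libraries far below, with weakest folds of -6.50 and -6.01. Cx3cl1, the membrane-bound chemokine fractalkine, stood at 0.379 and 0.408 CPM in liver, 55.5 and 44.7 in heart, 88.1 and 104 in kidney and 131 and 106 in lung. Gcnt2, a glycosyltransferase of the I blood group, stood at 2.498 and 2.42 CPM in liver, 152 and 115 in heart, 122 and 127 in kidney and 145 and 172 in lung. Palmd, palmdelphin, stood at 1.25 and 3.67 CPM in liver, 194 and 161 in heart, 106 and 109 in kidney and 154 and 159 in lung. The highest liver value of these 3 was 3.67 CPM and the lowest value elsewhere 44.7 CPM.

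Some genes of this group had organ differences of their own beside the low liver level. Ly6c1, a surface protein of the Ly6 family, stood at 3.82 and 4.08 CPM in liver, 181 and 185 in heart, 935 and 899 in kidney and 688 and 387 in lung. Stard13, a START domain protein, stood at 1.17 and 2.48 CPM in liver, 236 and 225 in heart, 96.2 and 90.2 in kidney and 163 and 184 in lung. Npr3, the clearance receptor for natriuretic peptides, stood at 3.63 and 2.54 CPM in liver, 969.8 and 1074 in heart, 576 and 537 in kidney and 115 and 75.9 in lung. Ly6c1 and Npr3 varied widely among heart, kidney and lung, and liver was still the lowest, with weakest folds of -5.21 and -4.54. Cytl1, a secreted cytokine-like protein, was at 0 and 2.35 CPM in liver, 748 and 740.2 CPM in heart, 63.8 and 55.7 CPM in kidney and 601 and 760.4 CPM in lung. Kidney was thus the organ nearest to liver for Cytl1.

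Of 12 tested genes of caveolae and of the fenestral diaphragm, 6 were liver-lower, 1 was liver-higher and 5 were neither, with a median of -1.41. Cav1, the main coat protein of caveolae, stood at 55.2 and 77.5 CPM in liver, 992 and 1278 in heart, 215 and 263 in kidney and 2456 and 1713 in lung. Ehd2, which holds caveolae at the membrane, stood at 17.5 and 12.7 CPM in liver, 464 and 526 in heart, 339.5 and 378 in kidney and 720.1 and 458 in lung. The coat partners Ptrf (cavin 1) and Prkcdbp (cavin 3) stood at 52.9 and 61.3 in liver, 307 and 379 in heart, 143 and 157 in kidney and 410.1 and 382 in lung CPM, and at 3.79 and 2.102 in liver, 22.4 and 29.4 in heart, 139 and 107 in kidney and 61.7 and 31.4 in lung CPM. Liver was the lowest in all 4, and weakest folds ran from -1.38 for Ptrf to -4.49 for Ehd2. Cav2 and Sdpr, other caveolar proteins, were called in neither direction: Sdpr stood at 737 and 701 CPM in liver, 674 and 814 in heart, 310.1 and 276 in kidney and 1590.4 and 1386 in lung, where liver lay within the range of heart.

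Plvap, the protein of the diaphragm that spans caveolae and the fenestrae of kidney and endocrine capillaries, stood at 79.4 and 105 CPM in liver, 194 and 186 in heart, 1103 and 922 in kidney and 297 and 275 in lung. Kidney was highest and liver lowest, and Plvap was called liver-lower with a weakest fold, against heart, of -1.05. It was not called after quantile normalization (weakest fold -0.84), in a fit of all healthy groups (largest adjusted p 0.15) or without liver library 1 (-0.85). The liver-higher member was Ehd3, a membrane-remodelling protein also known from the glomerulus, at 1288 and 1258 CPM in liver, 9.86 and 12.2 in heart, 351 and 354 in kidney and 11.8 and 13.5 in lung. Kidney was the nearest organ and gave the weakest fold, 1.85.

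Basement membrane genes were lower in liver in part. Of 22 tested, 7 were liver-lower and none was liver-higher, with a median of -1.25, and 17 were lower than in kidney, 14 lower than in heart and 9 lower than in lung. Col18a1, whose fragment is endostatin, stood at 0.568 and 1.6 CPM in liver, 35.3 and 46.3 in heart, 56.7 and 65.5 in kidney and 38.5 and 53.02 in lung. Col15a1 stood at 0.454 and 0.659 CPM in liver, 32.8 and 32.9 in heart, 142 and 144 in kidney and 10.7 and 11.6 in lung. Col4a5, a chain of specialised basement membranes, stood at 0.379 and 1.098 CPM in liver, 18.3 and 13.03 in heart, 12.5 and 6.79 in kidney and 5.78 and 7.05 in lung. Liver was lowest in all 3, the highest liver value being 1.6 CPM, with weakest folds of -4.36, -2.96 and -2.12.

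The main chains of the vascular basement membrane were present in liver. Col4a1 stood at 297 and 306 CPM in liver, 659.8 and 571 in heart, 636 and 603 in kidney and 281 and 297 in lung, where liver overlapped lung and lay below heart and kidney. Lama4, the endothelial laminin chain, stood at 229 and 229.6 CPM in liver, 332 and 385 in heart, 252 and 216 in kidney and 149 and 179.8 in lung, with overlapping groups. Hspg2, perlecan, stood at 1004 and 960.1 CPM in liver, 1352 and 1305 in heart, 1609 and 1432 in kidney and 116 and 156 in lung, where lung was the low organ. The remaining liver-lower genes were Lamb1, Lamc1, Col4a3 and Col4a4. None of these 4 was called without liver library 1, and the count of liver-lower genes was then 3. It was 4 after quantile normalization, without a filter on low values, and with edgeR on the recovered reads.

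Notch signalling maintains arterial and continuous capillary identity. Of 18 tested genes of the pathway, 6 were liver-lower, among them ligands and targets, none was liver-higher and 12 were neither, with a median of -1.14. The ligand Jag2 stood at 1.63 and 1.13 CPM in liver, 32.6 and 37.7 in heart, 83.7 and 102 in kidney and 29.9 and 25.3 in lung. The ligand Jag1 stood at 7.38 and 16.9 CPM in liver, 53.4 and 53.01 in heart, 141 and 166 in kidney and 45.2 and 53.3 in lung. Both were lowest in liver and highest in kidney, with weakest folds of -3.59 and -2.03. The target Hey1, a repressor of the Hairy family, stood at 1.401 and 3.14 CPM in liver, 309 and 266 in heart, 44.5 and 62.4 in kidney and 143 and 97.5 in lung, with a weakest fold of -4.09. Its relative Hey2 stood at 0.303 and 0.157 CPM in liver, 2.22 and 5.11 in heart, 8.08 and 8.06 in kidney and 9.31 and 6.42 in lung. Hey2 was not called without heart library 2 (weakest fold -1.39, largest limma adjusted p 0.062). Dll4 stood at 79.9 and 103 CPM in liver, 173 and 131 in heart, 324 and 281 in kidney and 108 and 122 in lung, below the other organs but not past the test against lung (limma adjusted p 0.319). Notch3, also liver-lower, is a mural cell receptor: the 14 mural markers summed to 153 and 286 CPM in liver and 279 to 744 CPM in the other libraries, and their part in it was not tested.

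Transcription factors of continuous endothelium were the list with the lowest median in these comparisons after those of kidney endothelium. Of 19 tested, 7 were liver-lower and 1 liver-higher, with a median of -2.52. Tbx3, a T-box factor, stood at 0.265 and 0.314 CPM in liver, 32.7 and 47.1 in heart, 100.1 and 115 in kidney and 516 and 358 in lung. Meox1, a homeobox factor, stood at 0.454 and 1.35 CPM in liver, 23.8 and 30.6 in heart, 126 and 144 in kidney and 102 and 57.1 in lung. Both were lowest in liver, with lung highest for Tbx3 and kidney for Meox1, with weakest folds of -4.97 and -3.92. The others were Hey1, Hey2, Pparg, Foxc2 and Prdm16. Foxc2 was not called without lung library 2 (weakest fold -1.35, largest limma adjusted p 0.068) and Prdm16 not with edgeR (-2.12, 0.052). The liver-higher member was the nuclear receptor Nr5a2, at 47.5 and 58.9 CPM in liver, 1.32 and 3.797 in heart, 16.9 and 5.52 in kidney and 2.59 and 4.03 in lung. It was not called without kidney library 2 (1.59, 0.075) or liver library 2 (2.17, 0.053).

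**Figure D4:**
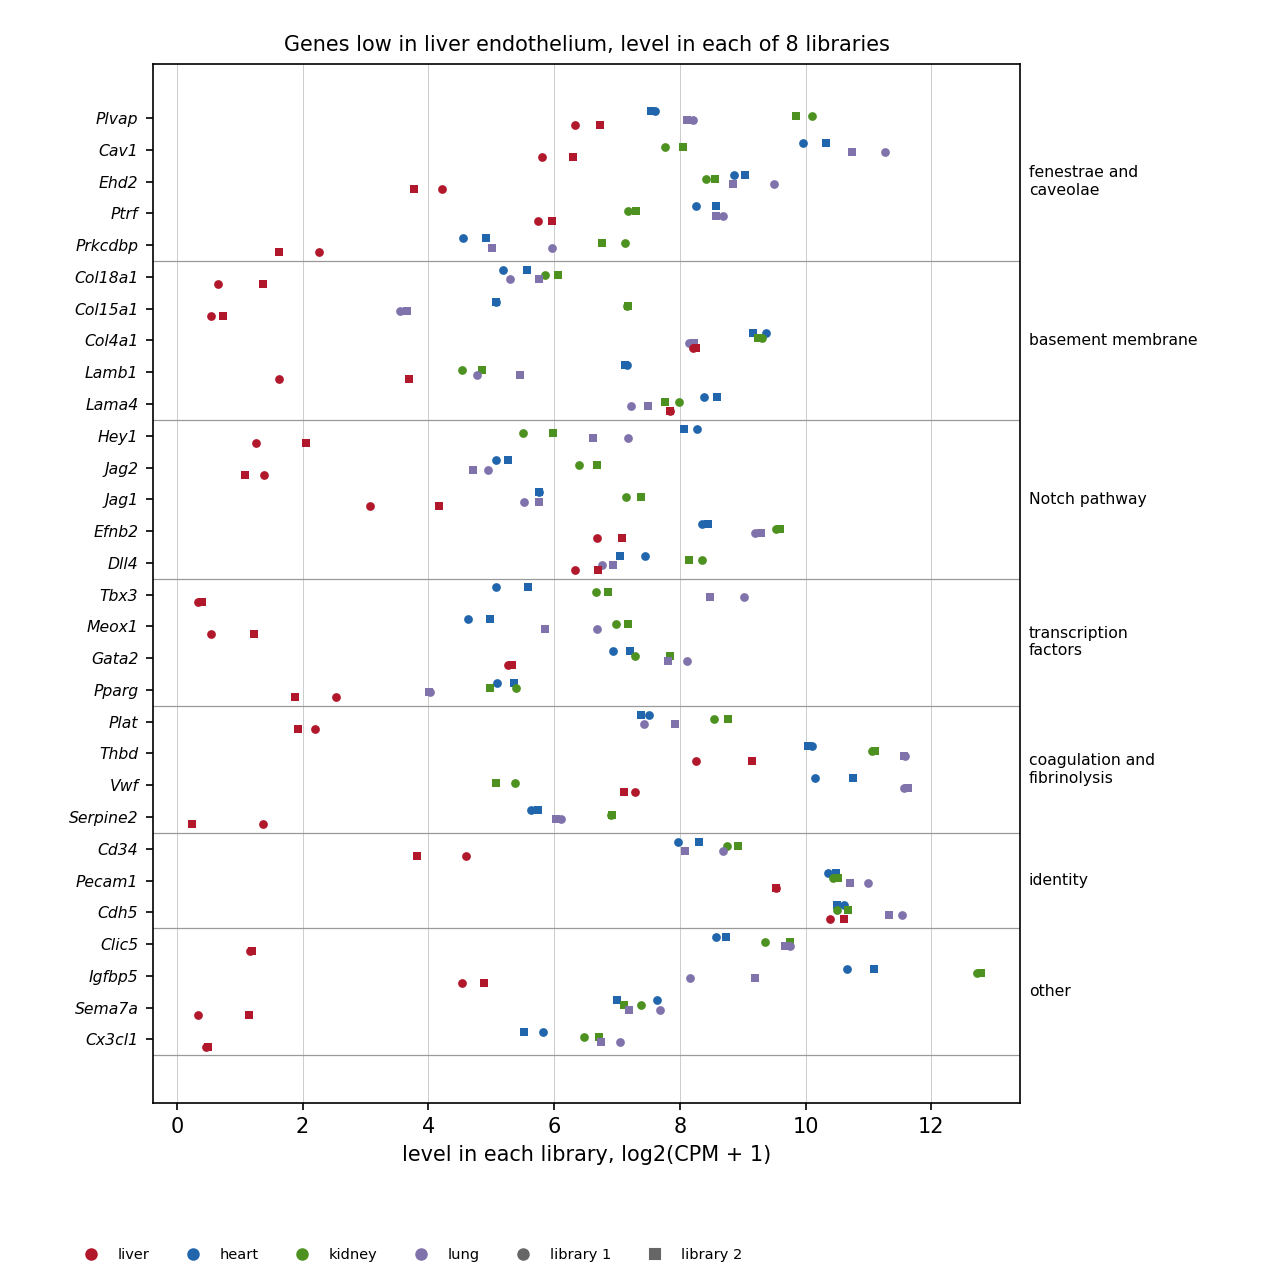
Levels in log2(CPM + 1) on the x axis for 30 genes on the y axis, with 1 point for each of the 8 libraries, coloured by organ and shaped by library. Liver points stand to the left of all others for the called genes such as Clic5, Ehd2 and Hey1, and lie among them for Col4a1, Lama4, Vwf and Cdh5.

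Most junction genes were called in neither direction, beside 5.54% liver-lower over all tested genes. Of 24 tested, 3 were liver-lower and none liver-higher, with a median of -0.67. Mllt4 (afadin), which links nectins to actin, stood at 68.4 and 52.6 CPM in liver, 215 and 249 in heart, 237 and 226 in kidney and 199 and 236 in lung. Jup, plakoglobin, stood at 69.8 and 93 CPM in liver, 241 and 210 in heart, 553 and 534 in kidney and 485 and 407 in lung. Cgnl1, paracingulin, stood at 24.5 and 15.7 CPM in liver, 530.4 and 628 in heart, 84.3 and 84.3 in kidney and 42.5 and 83.3 in lung. Liver was lowest in each, with weakest folds of -1.84, -1.47 and -1.56, and in Cgnl1 heart stood far above kidney and lung.

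Genes listed as typical of another organ's endothelium were not simply absent from liver. Of 16 kidney genes, 7 were liver-lower and 2 liver-higher, with a median of -2.67. The 2 were Ehd3 and the water channel Aqp1, and Aqp1, at 3059.6 and 2748 CPM in liver, 441 and 512 in heart, 776 and 669 in kidney and 1564 and 1189 in lung, was not called without lung library 2 (weakest fold 0.89) or in a fit of all healthy groups (largest adjusted p 0.078). Of 16 lung genes, 5 were liver-lower, with a median of -2.29. Of 13 heart genes, 2 were liver-lower, Ly6c1 and the retinol-binding protein Rbp7, with a median of -1.95. Of the lung genes 14 were lower in liver than in lung, 7 lower than in heart and 5 lower than in kidney. Of the heart genes 10 were lower than in heart, 8 lower than in kidney and 7 lower than in lung.

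In the remaining lists the called shares are to be read beside the 3% liver-higher and 5.54% liver-lower over all tested genes. Of 21 Hox genes 1 was liver-lower, Hoxd8, at 0.0379 and 0.408 CPM in liver, 2.48 and 4.99 in heart, 33.9 and 31.4 in kidney and 12.9 and 10.2 in lung. Of 18 genes for BMP and TGF-beta receptors and targets, 1 was liver-higher and 2 liver-lower, with a median of -0.56. These were Bmper, Tmem100 and Smad5, and none of the 3 was called under every left-out library: Bmper was not called without kidney library 1 (largest limma adjusted p 0.056) or liver library 1 (0.062), Smad5 had a weakest fold of -0.92 without lung library 2, and Tmem100 was not called in 9 settings, among them quantile normalization (weakest fold -0.89) and leaving out either liver library (0.12 and 0.094) or either kidney library (0.07 and 0.19). Of 22 immediate early genes 3 were liver-lower, with a median of -0.87. Nr4a1, an orphan nuclear receptor, stood at 18.6 and 52.9 CPM in liver, 134 and 169 in heart, 245 and 210 in kidney and 121 and 193 in lung. The summed immediate early level was 7981 and 19130 CPM in liver and 13282 to 24878 CPM elsewhere, and without liver library 2 the count of liver-lower genes rose from 3 to 7. The median of these genes was -1.51 without liver library 2 and -0.005 without liver library 1. Of 21 antigen presentation genes none was called in either direction. Of 27 cell cycle genes 1, Bub1b, was liver-higher, and it was not called without heart library 1, kidney library 2, lung library 1 or liver library 1 (largest adjusted p 0.055 to 0.18).

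**Figure D5:**
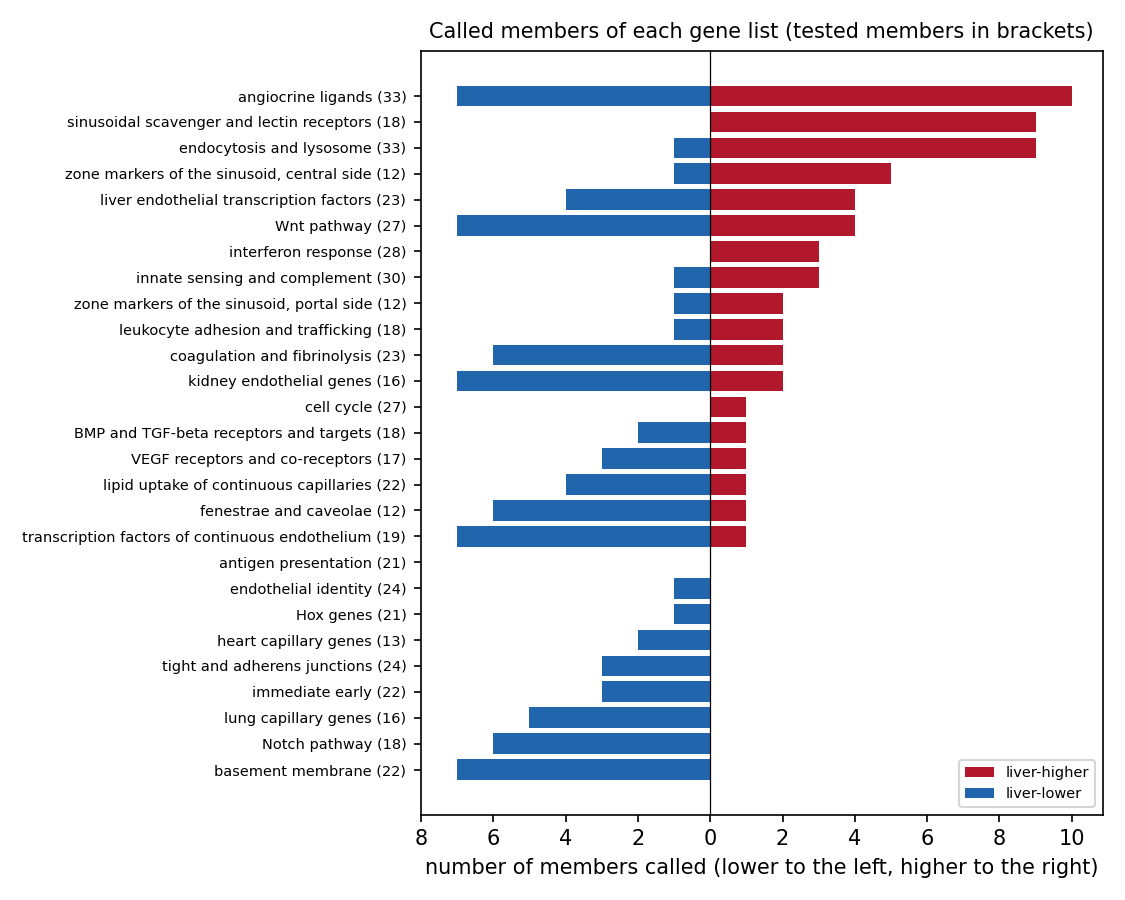
Number of members called liver-lower (bars to the left) and liver-higher (bars to the right) on the x axis for 27 gene lists on the y axis, with the number of tested members in brackets. Scavenger receptors reach 9 of 18 to the right, and basement membrane and Notch genes have bars to the left alone.

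To find genes that followed the sinusoidal pattern without using a list, Pearson's r of log2(CPM + 1) with Stab2 was taken over the 8 libraries, which makes it a description of 4 organs and no more. Only genes with a named symbol and a mean level above the median of tested genes were ranked. The nearest of these were Slc43a2 (r = 0.998), Tfec (0.997), Arrb2 (0.997), Gpr97 (0.991) and Snx8 (0.989). Slc43a2, a transporter of large neutral amino acids, stood at 338 and 400.3 CPM in liver, 6.89 and 5.99 in heart, 8.79 and 9.63 in kidney and 13.1 and 22.7 in lung. Arrb2, an arrestin that guides receptors into clathrin-coated pits, stood at 168 and 173 CPM in liver, 8.81 and 8.29 in heart, 9.26 and 11.4 in kidney and 16.4 and 17.8 in lung. Both were uniformly low outside liver and slightly higher in lung, as was Stab2. Within the same limits, the genes nearest to Gata4 were Apoc1 (0.981), Apoe (0.980), Bace2 (0.977), Zbtb39 (0.971) and Tmem56 (0.969), which had their second level in heart. Apoe, an apolipoprotein of many cells, stood at 1821 and 1629 CPM in liver, 771 and 998 in heart, 102 and 93.6 in kidney and 74.01 and 107 in lung. Bace2, an aspartic protease, stood at 219 and 219 CPM in liver, 79.7 and 139 in heart, 19.5 and 24.6 in kidney and 25.7 and 32.8 in lung. Apoc1 is on the hepatocyte list and the liver libraries held 70.4 and 40.7 CPM.

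Hepatocyte transcripts were present in the liver libraries at low levels. Of 110 listed markers 69 were tested, 37 were liver-higher and none was liver-lower. The median log2 fold was 1.96, or 1.85 when groups at 0 were set to the floor of 3 reads. A gene above 1 CPM in the 2 liver libraries alone passes the filter, so the filter itself raises this share and median. Of the 69 tested markers, 41 had an organ at 0 in both libraries. Without a filter on low values, 33 of 108 markers were liver-higher, with a median of 1.09. Alb, albumin, stood at 69.96 and 169.7 CPM in liver, at 0 in both heart libraries, at 0 and 0.0746 CPM in kidney and at 0.0431 and 0 CPM in lung. Apob, apolipoprotein B, stood at 14.1 and 28.9 CPM in liver and between 0 and 1.54 CPM elsewhere. Ttr, transthyretin, stood at 9.54 and 32.7 CPM in liver, 1.47 and 1.02 in heart, 1.38 and 0.933 in kidney and 0.948 and 0 in lung. Library 2 was the higher in all 3, and Alb did not pass the filter with either liver library left out. The 110 markers summed to 736 and 1175 CPM in liver against 281 to 530 CPM in the other libraries, and 14 and 2 of them were at 0 in liver against 60 to 74 elsewhere. Without liver library 1, 11 of 40 tested hepatocyte markers were liver-higher, with a median of 1.82, and without liver library 2, 7 of 39 were liver-higher and 1 liver-lower, with a median of 0.75. With edgeR on the recovered reads the median was 5.24 with 30 liver-higher, and with DESeq2 20 were liver-higher. The part of hepatocyte RNA in other liver-higher genes was not tested.

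Macrophage transcripts went the other way between the liver libraries. Of 55 tested macrophage and Kupffer cell markers, 11 were liver-higher and none was liver-lower, with a median of 1.35. Clec4f, a lectin of Kupffer cells in the mouse, stood at 152 and 65.4 CPM in liver, 0.6397 and 0 CPM in heart, 0 in both kidney libraries and 0.0431 and 0 CPM in lung. Cd5l, a secreted protein of tissue macrophages, stood at 160.4 and 46.97 CPM in liver, 0 in heart and lung and 0 and 0.0746 CPM in kidney. Vsig4, a complement receptor of Kupffer cells, stood at 120.3 and 37.1 CPM in liver, 0.753 and 0.321 in heart, 0.0394 and 0 in kidney and 0 and 0 in lung. Library 1 held the higher level in each, and none of these genes passed the filter with either liver library left out. The 56 listed markers summed to 2550 and 1159 CPM in liver, 2065 and 2985 CPM in lung, 216 and 427 CPM in heart and 248 and 271 CPM in kidney. Lung was thus in the range of liver or above it for this sum, and Kupffer cell genes were near 0 there. Cd84, an adhesion receptor of leukocytes, stood at 143 and 142 CPM in liver, 0.865 and 1.14 in heart, 0.0788 and 0.0746 in kidney and 6.38 and 9.49 in lung and did not differ between the liver libraries. Without liver library 1, 1 of 51 tested macrophage markers was liver-higher, with a median of 0.59, and without liver library 2, 10 of 52, with a median of 1.83. It was 6 of 55 without heart library 1 and 7 of 55 without either kidney library.

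Stellate cell transcripts were found as well. Of 18 markers of the hepatic stellate cell, 8 were liver-higher, with a median of 2.34, or 2.32 with groups at 0 set to the floor. Colec10, a collectin, stood at 51.3 and 85.9 CPM in liver, 0 in both heart and both kidney libraries and 0.172 and 0.588 CPM in lung. Their sum was 547 and 1536 CPM in liver and 159 to 1828 CPM elsewhere, where Dcn, decorin, at 756 and 824 CPM in heart, made up much of it. Without liver library 1, 5 of 14 tested members were liver-higher, with a median of 2.37, and without liver library 2, 2 of 14 were liver-higher and 1 liver-lower, with a median of 0.51. Of 14 mural cell markers 5 were liver-lower and none was liver-higher, and 2 were liver-lower without liver library 1 and 3 without heart library 2 or lung library 1. The B cell kinase Blk was liver-higher at 17 and 21.8 CPM in liver and 0 to 0.261 CPM elsewhere, while Cd79a, which defines B cells, stood at 1.67 and 8.44 CPM in liver, 1.88 and 1.11 in heart, 1.89 and 0.224 in kidney and 0.5604 and 2.31 in lung. Blk and Colec10 passed the filter through the liver libraries alone and were not tested with either of them left out. Red blood cell markers summed to 88.8 and 370.2 CPM in liver and 16.4 to 112 CPM elsewhere. In the main fit no marker of T cells, bile duct, neutrophils or lung epithelium was called in either direction. The T cell kinase Lck was liver-higher after quantile normalization, in limma without a trend, with edgeR and with DESeq2. Of 14 lung epithelial markers, 10 were lower in liver than in lung and 0 lower than in heart or kidney, while a call asks for all 3 organs. With a pseudocount of 0.1, edgeR or DESeq2, 1 of the 14 was liver-lower. The part of these cells in the called genes was not tested.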

How the data were processed

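RNA-seq of sorted endothelial cells was used as deposited by the authors, as 1 table of CPM per gene and library with 37991 lines. TopHat2 2.0.13, featureCounts from Subread and build mm9 are named in the submitters' processing notes, with no settings. The CPM come from the authors. All 318767 nonzero values of the libraries read were whole reads within 0.001, so reads were recovered for the count tests. The authors' deposited log2 columns were not used, nor were 52 columns of libraries in other groups. Symbols turned into dates (25) were restored from their identifiers. Lines with a repeated symbol (3401) were kept apart by identifier.

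Levels were log2(CPM + 1), and folds on this scale understate changes of low genes. The main test was limma 3.58.1 (R 4.3.3) with a trend, 1 mean per organ, over 8 libraries in 1 fit, for genes above 1 CPM in at least 2 libraries, with Benjamini-Hochberg adjustment over 15348 genes per contrast. The 3 contrasts share the liver libraries. On simulated counts limma called 92 of 100 genes changed by 1.5 log2 units, 100 of 100 changed by 3, and 0 unchanged genes. In that simulation unchanged genes had the same mean in all organs, every gene had the same dispersion, and no low gene was changed. The real libraries differ between organs and between replicates in more ways, so these shares do not give the accuracy of the calls. Alternatives were other scalings, filters, pseudocounts and fold limits, a replicate block, all healthy groups in 1 fit, edgeR 4.0.16, DESeq2 1.42.0, and each library left out. Same-numbered libraries of different organs had weakly correlated deviations, which cannot tell whether they came from the same animals.

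The gene lists and members were chosen with earlier results of these data known. Genes named are the 15 liver-higher and 12 liver-lower genes with the largest weakest fold on no marker list, up to 5 called members per list, 25 standard genes of liver endothelium and up to 8 markers per marker list. The 15 and 12 were taken among genes with a named symbol and liver libraries that did not overlap the others. Their mean CPM over the 8 libraries had to exceed the median of tested genes, 13.66 CPM. Other list members named were chosen after their values were seen. Promoters are from RefSeq. Of the coagulation list, 1 called gene is not reported here. No genome of build mm9 was used, so no coordinates were taken from the files.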

Additional observations from a re-analysis of the deposited data

How the results depend on the processing

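Deviations of same-numbered libraries from their organ means had correlations of -0.21 to 0.193 across organs. These values cannot tell whether same-numbered libraries came from the same animals. With the replicate number as a block, 440 genes were liver-higher and 843 liver-lower, of which 436 and 821 are among the 460 and 851. Without 1 library at a time, liver-higher genes ranged from 257 to 439 and liver-lower genes from 571 to 984, genes called against heart from 2551 to 5759, against kidney from 2462 to 4831, against lung from 2102 to 3337 and against the mean of the 3 organs from 2410 to 5580. The low ends came without liver library 1, except for heart (without heart library 1) and kidney (without kidney library 1). Part of this loss follows from the filter, since 97 liver-higher genes were then not tested. With a fold limit of 2 log2 units, 203 genes were liver-higher and 330 liver-lower, and with none, 561 and 1122. Quantile normalization gave 647 and 629, leaving out mitochondrial ribosomal RNA 558 and 744, no filter 373 and 612, a pseudocount of 0.1 gave 390 and 1004, edgeR 441 and 790 and DESeq2 494 and 1041. Without hepatocyte and macrophage genes 412 were liver-higher, and 347 had every liver library at least 1 log2 unit above the other 6, both chosen after seeing the data. The share of called genes higher in liver against the 3-organ mean was 34.0%, and 50.2% after quantile normalization, 49.5% with edgeR. Against kidney it was 39.4% without mitochondrial RNA, 46.5% with edgeR and 45.5% with DESeq2, and against lung 39.1% with edgeR. Against heart, 2513 genes were higher and 2735 lower in liver, and 2677 and 2538 after quantile normalization, where the median fold also changed sign against kidney (-0.24 to 0.03), lung (-0.17 to 0.10) and the 3-organ mean (-0.16 to 0.05). No named gene called liver-higher or liver-lower changed the sign of its fold against the 3-organ mean, while some uncalled ones did. Among the named genes 3004 values kept their call, 129 lost it and 14 gained one. With 2 libraries per organ, small differences are not detectable, and 3 reads (0.088 to 0.129 CPM) limit low genes.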

Other observations

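Some liver-higher genes of large fold are on none of the lists. Gatm, the enzyme of the first step of creatine synthesis, stood at 719 and 699 CPM in liver, 3.05 and 5.14 in heart, 4.06 and 4.29 in kidney and 5.04 and 6.09 in lung. Aass, which starts the breakdown of lysine, stood at 229.9 and 184 CPM in liver, 1.81 and 2.02 in heart, 7.53 and 0.597 in kidney and 0.733 and 0.4198 in lung. Akr1b8, an aldo-keto reductase, stood at 148 and 134 CPM in liver, 4.85 and 3.68 in heart, 1.497 and 0.0746 in kidney and 2.198 and 1.22 in lung. In each the liver libraries were close to each other and far above the other 6, with weakest folds of 6.76, 5.81 and 4.76 log2 units and a largest limma adjusted p of 0.000163. Oit3, a secreted protein with a zona pellucida domain, stood at 1547 and 1677 CPM in liver, 1.32 and 1.402 in heart, 10.4 and 3.06 in kidney and 1.25 and 1.64 in lung. Tmem132e stood at 70.2 and 60.97 CPM in liver, 0.276 and 0.0373 CPM in kidney and 0 in all heart and lung libraries. Tmem132e passed the filter through the liver libraries alone and was not tested with either of them left out. The hepatocyte markers were higher in liver library 2, and Gatm, Aass and Akr1b8 were lower there. The part of hepatocyte RNA in their levels was not tested.

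Some regulators of complement and members of the interferon response were called, beside 3% liver-higher and 5.54% liver-lower over all tested genes. Of 30 tested genes of innate sensing and complement, 3 were liver-higher and 1 liver-lower, with a median log2 fold of 0.33. Cd55, which shields cells from complement, stood at 1186 and 864 CPM in liver, 78.2 and 64.1 in heart, 3.86 and 8.85 in kidney and 45.95 and 33.4 in lung. Cd59a, which blocks the membrane attack complex, stood at 393 and 348 CPM in liver, 95.1 and 120.1 in heart, 55.6 and 60.9 in kidney and 17.6 and 17.1 in lung. Both were highest in liver, with kidney lowest for Cd55 and lung lowest for Cd59a. Casp1 was liver-higher as well, but not without liver library 1 (weakest fold 1.59, largest limma adjusted p 0.056). Nod2, a sensor of bacterial peptidoglycan, was liver-lower at 0.341 and 1.22 CPM in liver, 43.5 and 29.7 in heart, 38.5 and 49.1 in kidney and 20.9 and 31.1 in lung. Masp1, a protease of the lectin pathway on no list here, stood at 343 and 391 CPM in liver, 0.226 and 1.81 in heart, 1.497 and 0.933 in kidney and 8.66 and 6.47 in lung. Of 28 interferon response genes 3 were liver-higher, with a median of 0.20, and 1 was liver-higher without liver library 2 or without heart library 2. Ifitm2, which restricts virus entry, stood at 2483 and 2342 CPM in liver, 831 and 902 in heart, 648 and 674 in kidney and 952 and 593 in lung. Cxcl10, a chemokine induced by interferon, stood at 406 and 2360.1 CPM in liver, 117 and 121 in heart, 17.6 and 28.8 in kidney and 10.7 and 52.6 in lung, and without liver library 2 it was not called (weakest fold 1.76, largest limma adjusted p 0.092), nor without heart library 1 (0.081) or heart library 2 (0.057). Ifitm1 was not called without heart library 2 (0.058) or liver library 2 (0.056).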
